A study of Mus musculus with 12 samples.

Results

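The genes described here were Trp53, which encodes the transcription factor p53, and 9 of its direct target genes outside the BCL2 family, namely Cdkn1a, Mdm2, Ccng1, Trp53inp1, Zmat3, Phlda3, Aen, Eda2r and Tnfrsf10b. They were picked by name, and all 10 were found among the 21671 genes of the expression table. p53 is held at a low level by the ubiquitin ligase Mdm2, is stabilised after DNA damage, oncogene activity or nutrient stress, and then binds response elements near its target genes. Its targets arrest the cell cycle, promote apoptosis, alter metabolism or, like Mdm2 itself, close a negative feedback loop. Because p53 is regulated mainly at the level of its protein, the mRNAs of its targets are the usual transcript-level measure of its activity, and deregulated MYC is a known trigger of the pathway in lymphoid cells.

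The data were RNA-seq profiles of FL5.12 MycER cells, with 3 libraries in each of 4 conditions. FL5.12 is a BALB/c prolymphocytic cell line that depends on interleukin 3, and all 12 libraries came from cells that carried a retroviral MycER transgene (MYC fused to a hormone-binding domain that responds to 4-hydroxytamoxifen, OHT), selected with zeocin and, per the study's methods, passaged in medium with lowered glucose. Untreated cells received neither compound. OHT cells were kept in 100 nM OHT for 72 h, and IACS cells received 135 nM IACS-010759, an inhibitor of respiratory chain complex I, for 24 h. OHT_IACS cells were primed with 100 nM OHT for 48 h and then given 135 nM IACS-010759 for 24 h with OHT still present. No line without MycER was among the libraries, so that an effect of OHT itself and of MycER activation cannot be told apart.

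Levels are given as scaled RPKM, that is, deposited reads per kilobase of gene and library depth after libraries were scaled by their median ratio, and differences as log2 fold changes of scaled RPKM + 0.1 with their standard errors (SE). A gene was said to rise or fall when its adjusted p was under 0.05 (limma on all 12 libraries, with Benjamini-Hochberg adjustment over 9745 genes). Library totals worked out from the RPKM steps ran from 10376530 to 14550158, and scale factors ran from 0.971 to 1.02. Of 13 pro-B markers, 10 stayed under 1 RPKM in every library, and Pax5, Rag1, Il7r and Blnk were among the 5 at 0 throughout, while the other 3, Cd79a, Cd79b and Ptprc, passed the filter. Cd79a and Cd79b, the signalling chains of the B cell receptor, had 8 to 29 and 13 to 57 reads per library, and Ptprc, a marker of all leukocytes, lay between 15.2 and 18.9. The pro-B sum was 21.5 to 21.8 in untreated cells, 18.4 to 19.6 with OHT, 22.2 to 23.5 with IACS and 17.3 to 19.0 with both, and Cd79b fell with OHT (2.99 ± 0.337 to 1.35 ± 0.239, −1.1, SE 0.17, adjusted p 0.000262). The myeloid gene Mpo and the erythroid factor Gata1 were present in all libraries. The 6 myeloid markers, none of which was at 0 in every library, summed to 15.8 to 17.2 in untreated cells, 10.5 to 12.8 with OHT, 13.8 to 16.3 with IACS and 9.91 to 11.2 with both. Most of this sum was Mpo. With OHT Lyz2, the lysozyme of myeloid cells, fell (1.78 ± 0.145 to 0.403 ± 0.142, −1.94, SE 0.24, adjusted p 3.54e-05), as did Mpo (13 ± 0.879 to 10.2 ± 1.21, −0.35, SE 0.09, adjusted p 0.00865), the latter not called with the library total in the fit (−0.17, adjusted p 0.211). The 3 erythroid markers found in the table summed to 28.0 to 29.3, 32.8 to 34.3, 28.2 to 32.1 and 30.8 to 32.6 in the same order, T cell markers to 2.16 to 2.6, 1.21 to 1.44, 2.46 to 2.52 and 1.84 to 2.0, and stromal markers to at most 0.336. The part of these marker shifts in the results for OHT was not tested. Since RNA was taken from whole cultures, fewer cells that express a gene and less RNA per cell cannot be told apart.

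Messenger RNAs of the pathway were present at very unequal levels in untreated cells. Ccng1 was highest at 45.0 ± 2.61 RPKM (SD, n = 3), followed by Trp53 at 32.3 ± 0.526, Aen at 31.3 ± 0.426, Cdkn1a at 15.0 ± 1.42, Mdm2 at 9.79 ± 0.26 and Phlda3 at 7.34 ± 0.561. Zmat3 at 1.91 ± 0.166, Tnfrsf10b at 1.27 ± 0.0372, Trp53inp1 at 0.957 ± 0.0854 and Eda2r at 0.0119 ± 0.0118 were the lowest. No neighbours in this order overlapped among the 3 untreated libraries. The filter on low values was passed by 9 members, and Eda2r did not pass it. The plot of levels by library gives all values of all 10 genes.

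**Figure D1:**
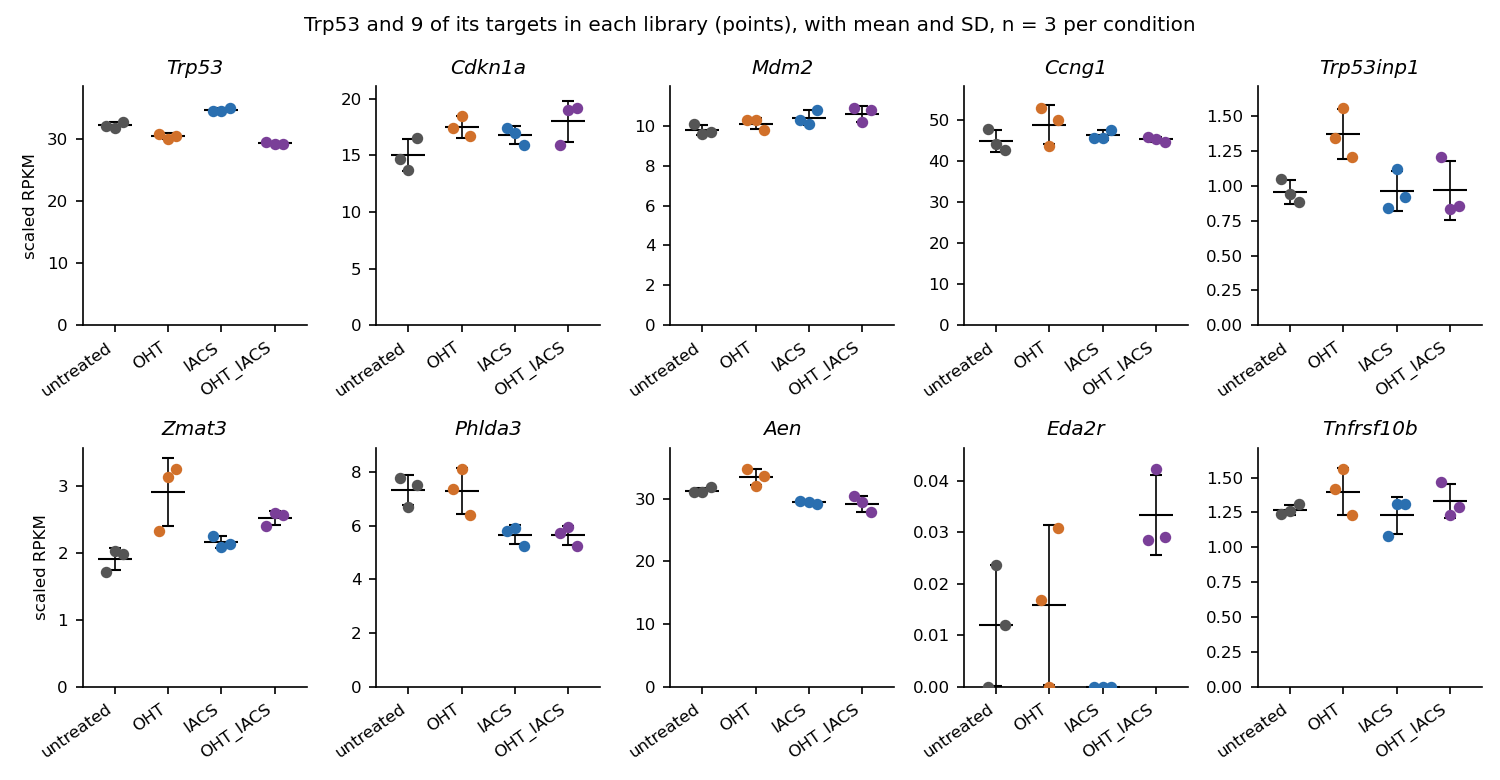
Scaled RPKM (vertical axes, each starting at 0) of Trp53 and 9 targets in the 12 libraries; points are libraries, horizontal lines are means and error bars are SD over 3 libraries per condition. Trp53 separates into 4 narrow groups, Zmat3 is highest with OHT, Phlda3 is lower in both conditions with IACS-010759, and Eda2r stays at 0.0422 or below.

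The mRNA of p53 itself changed little but with very small spread between replicates. Trp53 lay at 32.2, 31.8 and 32.8 RPKM in untreated libraries, at 30.9, 30 and 30.6 with OHT, at 34.6, 34.6 and 35.1 with IACS, and at 29.6, 29.3 and 29.3 with both. Thus it was highest with IACS-010759 alone, lower in untreated cells, lower again with OHT and lowest with both compounds, with no overlap between any neighbouring conditions. Under IACS-010759, priming with OHT went with a fall of Trp53 to 0.845 of its level (log2 fold change −0.24, SE 0.04, adjusted p 0.000546, limma with Benjamini-Hochberg adjustment). Cells given both compounds also had less Trp53 mRNA than untreated cells (−0.13, SE 0.04, adjusted p 0.0157), although this call was lost without untreated library 3 (−0.12, adjusted p 0.0607) or OHT_IACS library 3 (−0.13, adjusted p 0.0513).

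Neither compound alone gave a change of Trp53 with an adjusted p under 0.05 (limma). With OHT the log2 fold change against untreated cells was −0.08 (SE 0.04, adjusted p 0.118), which passed after quantile normalization (−0.14, adjusted p 0.00588). With IACS-010759 it was 0.11 (SE 0.04, adjusted p 0.0794), which passed with RPKM as deposited (0.14, adjusted p 0.0463) and without OHT library 2 (0.11, adjusted p 0.0418). In primed cells IACS-010759 gave −0.05 (SE 0.04, adjusted p 0.362). The opposite signs of the responses to IACS-010759 in nonprimed and primed cells were tested directly, and the difference of −0.16 did not pass (adjusted p 0.264). A processed pseudogene, Trp53-ps, is annotated on another chromosome, and whether reads were shared with it was not tested.

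Trp53 lies on the plus strand of chromosome 11 (GRCm38, chr11:69580359-69591873), head to head with Wrap53 on the minus strand, whose annotated start is 103 bases away. Wrap53, which encodes a telomerase and Cajal body protein, lay at 13.7 ± 0.903 RPKM in untreated cells, 13.6 ± 0.873 with OHT, 11.1 ± 0.965 with IACS and 10.9 ± 0.358 with both. It fell with IACS-010759 in nonprimed cells (−0.30, SE 0.07, adjusted p 0.0113) and in primed cells (−0.32, SE 0.07, adjusted p 0.00574). The fall in nonprimed cells was not called without untreated library 3 (−0.25, adjusted p 0.0527) or with RPKM as deposited (−0.27, adjusted p 0.0517). These neighbours therefore had different orders of conditions, since Trp53 was highest with IACS-010759 alone, where Wrap53 had fallen. The stretch between them is shown because it holds the start of Trp53, and it was read from the RefSeq promoter windows (GRCm38.p6, chr11:69580259-69580383, plus strand), with a match to the p53 decamer and an E-box in capitals.

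Trp53: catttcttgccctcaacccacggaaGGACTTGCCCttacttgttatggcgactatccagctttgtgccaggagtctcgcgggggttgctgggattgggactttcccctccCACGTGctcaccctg

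In this stretch the p53 decamer, the palindromic unit of a p53 response element, began 75 bases before the annotated start of Trp53. The E-box CACGTG, the sequence that MYC and its partner MAX are known to bind, began at position 11 of the transcript. RefSeq windows of 300 bases (250 before the start and 50 from it on) were given for 7 of the 10 genes, the others being Trp53inp1, Zmat3 and Tnfrsf10b. Over both strands, and counting a gene once where it had more than 1 window, the decamer was found in 9.55% of 27025 genes and CACGTG in 8.09%. Among the members with a window, 5 held the decamer (Trp53, Cdkn1a, Mdm2, Ccng1 and Aen) and 3 held CACGTG (Trp53, Aen and Eda2r). The stress-response element TGATGNAA, present in 4.51% of these genes, was found in none of these 7 genes.

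Among the genes that restrain p53, Mdm2 stayed within a narrow band. Mdm2 mRNA measured 10.1, 9.59 and 9.70 RPKM in untreated libraries, 10.3, 10.3 and 9.81 with OHT, 10.3, 10.1 and 10.8 with IACS, and 10.9, 10.2 and 10.8 with both. All neighbouring conditions in the order of means overlapped. The IACS and the OHT_IACS libraries nevertheless lay above all untreated ones, narrowly so. None of the 5 comparisons was called, the closest being both compounds against neither (log2 fold change 0.12, SE 0.05, adjusted p 0.0736), where the 95% interval ran from 0.01 to 0.22. That comparison passed with RPKM as deposited (0.14, adjusted p 0.0433) and without OHT_IACS library 2 (0.15, adjusted p 0.0492). For OHT alone the interval ran from −0.06 to 0.15 and for IACS-010759 alone from −0.02 to 0.19, so that larger changes of Mdm2 mRNA by either compound lay outside these intervals.

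Ccng1, which encodes cyclin G1, a recruiter of protein phosphatase to Mdm2, was the most abundant target. It measured 47.8, 44.3 and 42.7 RPKM in untreated libraries, 53.1, 43.7 and 50.2 with OHT, 45.6, 45.8 and 47.7 with IACS, and 46.0, 45.4 and 44.7 with both. All 4 conditions overlapped, the OHT libraries were spread widest, and no comparison was called. OHT library 2, the lowest of its group, decided this: without it Ccng1 rose with OHT (0.20, adjusted p 0.00866) and fell when IACS-010759 was added (−0.19, adjusted p 0.0193), against 0.12 and −0.11 with all libraries. That library had the highest total of its group. Ccng1 had 0.581 reads per base, and its reads rose with the library total within conditions at a log2 slope of 0.623, beside a median of 0.836 for genes at 0.3 to 0.7 reads per base and 1.42 for genes at or under 0.05. With the log2 library total in the fit the difference with OHT was −0.02 (adjusted p 0.784), so no direction is given for Ccng1. Other members also departed from a slope of 1, at which RPKM does not change with the library total. The slope was 1.41 for Cdkn1a, 1.43 for Tnfrsf10b, 1.59 for Phlda3, 1.61 for Zmat3 and 1.7 for Trp53inp1. For Aen, Trp53 and Mdm2 it was 1.01, 1.05 and 1.07.

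The promoter stretches of these regulators are shown because each holds a single decamer, in capitals, upstream of its start (Mdm2 at chr10:117710910-117710969 and Ccng1 at chr11:40755437-40755496, both GRCm38.p6, minus strand).

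Mdm2: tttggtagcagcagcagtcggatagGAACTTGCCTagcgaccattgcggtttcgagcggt

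Ccng1: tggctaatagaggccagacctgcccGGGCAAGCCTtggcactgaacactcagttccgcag

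The Mdm2 match began 186 bases and the Ccng1 match 185 bases before the RefSeq start. Neither match tells whether p53 was bound there.

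Cdkn1a encodes p21, the inhibitor of cyclin-dependent kinases through which p53 arrests the cell cycle. Its mRNA measured 14.7, 13.7 and 16.5 RPKM in untreated libraries, 17.4, 18.5 and 16.7 with OHT, 17.4, 17.0 and 15.9 with IACS, and 15.9, 19.0 and 19.2 with both. The 3 OHT libraries lay narrowly above the 3 untreated ones, whereas the other conditions overlapped untreated cells. Cdkn1a rose 1.17-fold with OHT (0.23, SE 0.08, adjusted p 0.0358). It rose 1.20-fold with both compounds against neither (0.27, SE 0.08, adjusted p 0.0168). Without untreated library 1 or 2, or OHT library 1 or 2, the rise with OHT was 0.17 to 0.24 with adjusted p 0.0672 to 0.15, and it was not called without the filter on low values (0.23, adjusted p 0.0666). The rise with both was not called without untreated library 1 or 2 or OHT_IACS library 2 or 3 (0.21 to 0.26, adjusted p 0.0523 to 0.0803).

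Adding IACS-010759 to primed cells left Cdkn1a at a log2 fold change of 0.04 (95% interval −0.14 to 0.21), and in nonprimed cells the value was 0.17 (SE 0.08, adjusted p 0.173). The upstream of the 2 RefSeq starts of Cdkn1a is shown because it was the only member window with a match to a full p53 element. The pattern used, a pair of exact decamers with at most 13 bases between, was found in 24 of the 32851 windows (0.0731%). The decamers matched, in capitals, began 73 and 51 bases before that start (chr17:29090879-29090978, GRCm38.p6, plus strand). Directly after the second decamer, tgacatgttc departs from the decamer pattern at its first base only. It was therefore not matched and is in lower case, so an element that pairs it with the second decamer is not marked.

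Cdkn1a: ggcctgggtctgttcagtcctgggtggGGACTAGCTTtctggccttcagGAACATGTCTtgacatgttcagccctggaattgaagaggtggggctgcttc

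The window at the downstream start of Cdkn1a held neither the decamer nor CACGTG. A match describes the letters of these windows and not binding of p53 in these cells.

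Zmat3, whose product is a zinc finger protein that binds RNA and acts in tumour suppression by p53, had the greatest called response to OHT among the members. It measured 1.72, 2.03 and 1.99 RPKM in untreated libraries, 2.33, 3.14 and 3.25 with OHT, 2.26, 2.09 and 2.14 with IACS, and 2.40, 2.59 and 2.57 with both. Every OHT library was above every untreated and IACS library, and the OHT_IACS libraries lay between IACS and the upper OHT values. The rise with OHT was 1.48-fold (0.57, SE 0.12, adjusted p 0.00257), and it was called under every alternative tried. With both compounds against neither Zmat3 rose 1.31-fold (0.39, SE 0.12, adjusted p 0.0222). This second call was lost without untreated library 1 (0.32, adjusted p 0.0907) or OHT_IACS library 2 (0.37, adjusted p 0.0618) or 3 (0.37, adjusted p 0.0631).

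In primed cells IACS-010759 moved Zmat3 by −0.18 (SE 0.12, adjusted p 0.287), and without OHT library 1, the lowest of its group, by −0.33 (adjusted p 0.0435). In nonprimed cells the value was 0.17 (SE 0.12, adjusted p 0.371). Zmat3 rested on 176 to 348 reads per library.

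The members that act in apoptosis did not move as a group. Trp53inp1, which encodes a stress protein that aids p53 activity and autophagy, measured 1.05, 0.940 and 0.881 RPKM in untreated libraries, 1.34, 1.56 and 1.21 with OHT, 0.843, 1.12 and 0.921 with IACS, and 1.21, 0.833 and 0.858 with both. The OHT libraries were all above the untreated and IACS ones, while in the presence of both compounds 2 of 3 libraries were back at the untreated level. The difference with OHT was 0.47 (SE 0.18, adjusted p 0.051) and that of adding IACS-010759 to primed cells was −0.47 (SE 0.18, adjusted p 0.0684), so that neither was called at 64 to 142 reads per library. Without OHT_IACS library 1 both passed (0.47 with adjusted p 0.038, and −0.63 with adjusted p 0.0315). The first also passed with a pseudocount of 1, RPKM as deposited, quantile normalization or voom on reads (0.28 to 0.62, adjusted p 0.00709 to 0.046), and the second with quantile normalization (−0.57, adjusted p 0.0325) or voom (−0.52, adjusted p 0.0152). In nonprimed cells the response to IACS-010759 was 0.00 with a 95% interval from −0.38 to 0.38.

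Phlda3, a repressor of the survival kinase AKT, fell with complex I inhibition in nonprimed and in primed cells. It measured 7.78, 6.71 and 7.52 RPKM in untreated libraries, 7.38, 8.10 and 6.39 with OHT, 5.81, 5.93 and 5.26 with IACS, and 5.74, 5.95 and 5.25 with both. All 6 libraries with IACS-010759 lay below all 6 without it, whether or not the cells were primed. Phlda3 fell to 0.776 of its level in nonprimed cells (−0.37, SE 0.09, adjusted p 0.014) and to 0.780 in primed cells (−0.36, SE 0.09, adjusted p 0.0114), and with both compounds against neither by 0.37 on the log2 scale (SE 0.09, adjusted p 0.00485). OHT itself gave −0.01 (95% interval −0.20 to 0.18), and the direction of that value changed with the scaling. The call in nonprimed cells was lost without untreated library 1 (−0.32, adjusted p 0.0632), untreated library 3 (−0.35, adjusted p 0.0507) or IACS library 3 (−0.31, adjusted p 0.0574). The call in primed cells was lost without OHT_IACS library 3 (−0.31, adjusted p 0.0513). The call for both against neither was lost with the library total in the fit (−0.26, adjusted p 0.0665). No decamer or CACGTG was found in the Phlda3 window (chr1:135765835-135766134, GRCm38.p6).

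Aen, a nuclease that p53 induces in apoptotic cells, was among the most abundant targets. It measured 31.1, 31.0 and 31.8 RPKM in untreated libraries, 34.7, 32.1 and 33.6 with OHT, 29.6, 29.4 and 29.1 with IACS, and 30.4, 29.4 and 27.9 with both. The order was OHT, untreated, IACS and both, and only the last neighbours overlapped. Aen fell with IACS-010759 in primed cells (−0.20, SE 0.05, adjusted p 0.00895), a call that was lost when only the OHT and OHT_IACS libraries entered the fit (adjusted p 0.0515). Its difference with OHT was 0.10 (SE 0.05, adjusted p 0.121), which passed without OHT library 2 (0.13, adjusted p 0.0379), and that with IACS-010759 in nonprimed cells was −0.09 (SE 0.05, adjusted p 0.203). With both against neither it was −0.10 (SE 0.05, adjusted p 0.102), which passed with quantile normalization (−0.12, adjusted p 0.0188) and with the library total in the fit (−0.13, adjusted p 0.0488).

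The death receptor genes were low or at the floor. Tnfrsf10b, the mouse receptor for TRAIL, measured 1.24, 1.26 and 1.31 RPKM in untreated libraries, 1.42, 1.56 and 1.23 with OHT, 1.08, 1.31 and 1.31 with IACS, and 1.47, 1.23 and 1.29 with both, and all neighbouring conditions overlapped. Its response to IACS-010759 was −0.04 in nonprimed cells (95% interval −0.33 to 0.26) and −0.07 in primed cells (−0.36 to 0.23). Over the same libraries Ddit3, the stress factor CHOP that is known to drive Tnfrsf10b besides p53, rose by 1.17 (SE 0.07, adjusted p 1.23e-07) and by 0.76 (SE 0.07, adjusted p 5.67e-06). Eda2r, the receptor for ectodysplasin A2 and a target of p53 in many tissues, had 0 to 3 reads per library, at or under the floor of 3 reads used here, and no fold is given.

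Taken over the comparisons, few members were called, and their shares were mostly near or below those of all tested genes. With OHT 2 of 9 tested members were called, both as rises (Cdkn1a and Zmat3), beside 36.4% of all 9745 genes, and the median log2 fold change was 0.12 beside 0.01 for all genes. With IACS-010759 in nonprimed cells 1 member was called, a fall (Phlda3), beside 15.9% of all genes, with a median of 0.05. In primed cells 2 members fell with IACS-010759 (Phlda3 and Aen), beside 23.7% of all genes, with a median of −0.11. Each of these member medians was the value of Ccng1, for which no direction is given. Under IACS-010759, OHT priming gave 1 call, the fall of Trp53, beside 26.5%. With both compounds against neither 4 were called (Cdkn1a and Zmat3 up, Trp53 and Phlda3 down), beside 39.4%. These comparisons share libraries and are not independent of each other.

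No member was called in the interaction, the test of whether the response to IACS-010759 differed between primed and nonprimed cells. At an adjusted p under 0.05 it gave 0 of 9 members (limma, and 0 with voom), beside 0.144% of all genes. At an unadjusted p under 0.05 it gave 1 member, Trp53, beside 1240 of the 9745 genes tested. Hence neither the fall of Aen in primed cells nor the rise of Zmat3 with OHT was shown to depend on the other compound. The plot of fold changes gives the intervals.

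**Figure D2:**
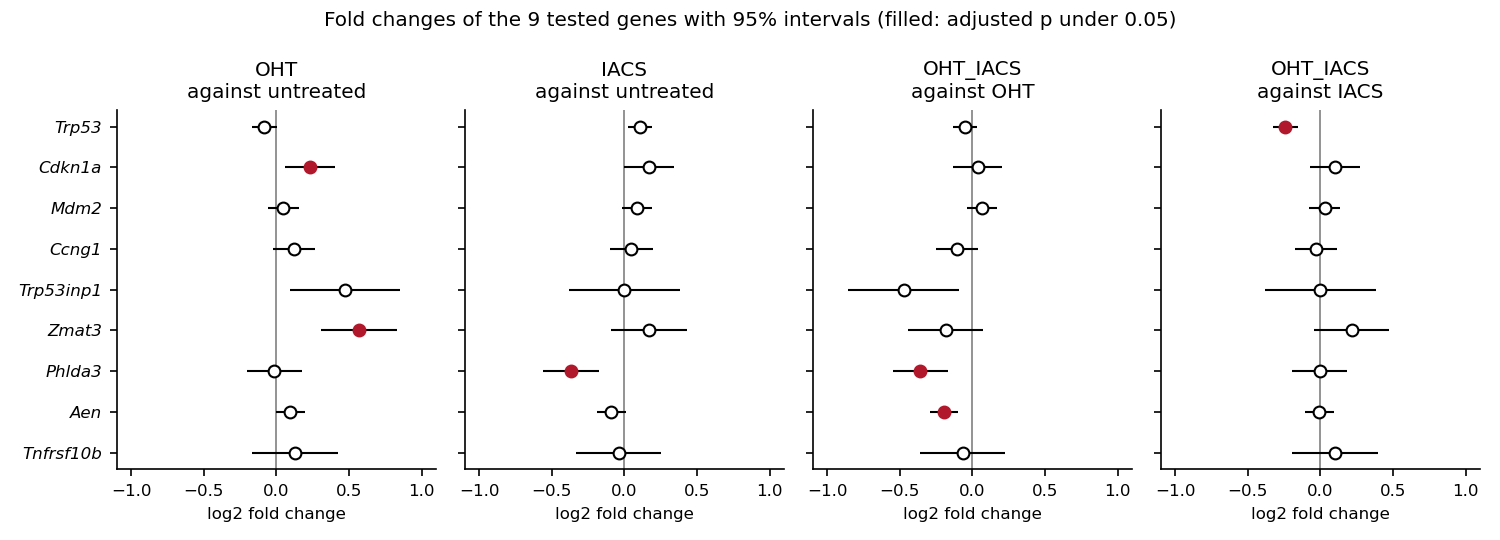
Log2 fold changes (horizontal axes) of the 9 tested genes in 4 comparisons, with 95% intervals from limma; filled points passed an adjusted p of 0.05. Zmat3 and Cdkn1a are filled on the right with OHT, Phlda3 on the left in both responses to IACS-010759, Aen on the left in primed cells, and Trp53 on the left for OHT under IACS-010759.

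Other known p53 targets moved in both directions. Of 34 further targets outside the BCL2 family 32 were found in the expression table and 22 were tested, and 10 of the others stayed under 1 RPKM in every library. With OHT 4 rose and 9 fell (59.1% called, beside 36.4% of all genes), with a median of −0.17. In the response to IACS-010759 4 rose and 0 fell in nonprimed cells (18.2% called, beside 15.9% of all genes), and 5 rose and 1 fell in primed cells (27.3%, beside 23.7%), both near the share of all genes, with medians of −0.06 and 0.00. For OHT under IACS-010759 2 rose and 7 fell (40.9%, beside 26.5%). With both compounds against neither 7 rose and 8 fell (68.2%, beside 39.4%).

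Gls2 and Ddit4 had the greatest rises with OHT. Gls2, the p53-induced mitochondrial glutaminase, measured 6.01, 5.87 and 6.38 RPKM in untreated libraries, 11.3, 10.7 and 10.9 with OHT, 6.08, 6.19 and 4.87 with IACS, and 11.1, 11.4 and 11.8 with both. The conditions with OHT were thus set apart from those without it, and Gls2 rose with OHT alone (0.84, SE 0.08, adjusted p 3.43e-06) and under IACS-010759 (1.0, SE 0.08, adjusted p 1.2e-06). Ddit4, which restrains mTORC1 and is also induced by other stresses, measured 9.98 ± 1.18 RPKM in untreated cells, 15.9 ± 1.90 with OHT, 16.5 ± 0.828 with IACS and 22.1 ± 1.97 with both. It rose with OHT (0.67, SE 0.10, adjusted p 0.000131) and with IACS-010759 (0.73, SE 0.10, adjusted p 0.000259), and it was highest with both.

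Gadd45a and Sesn2 rose with complex I inhibition. Gadd45a, a growth arrest and DNA repair gene, measured 5.29, 6.21 and 5.92 RPKM in untreated libraries, 4.54, 3.85 and 3.64 with OHT, 11.2, 10.8 and 9.53 with IACS, and 7.15, 7.20 and 7.27 with both. It therefore fell with OHT (−0.53, SE 0.09, adjusted p 0.000441) and rose with IACS-010759 in nonprimed (0.85, SE 0.09, adjusted p 3.77e-05) and primed cells (0.83, SE 0.09, adjusted p 2.96e-05). Sesn2, a sestrin that senses leucine and curbs mTORC1, measured 7.16, 7.37 and 7.77 RPKM in untreated libraries, 6.27, 7.33 and 6.74 with OHT, 11.2, 10.8 and 12.8 with IACS, and 12.5, 12.1 and 11.9 with both. It rose with IACS-010759 in nonprimed cells (0.63, SE 0.07, adjusted p 6.65e-05) and in primed cells (0.83, SE 0.07, adjusted p 4.04e-06). Both genes are also known targets of the stress factor ATF4. Triap1, a small inhibitor of apoptosis, fell in primed cells (−0.39, SE 0.08, adjusted p 0.00381).

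Among the targets that fell with OHT, Pml, the scaffold of nuclear bodies that stabilise p53, had the greatest fall. It measured 7.19, 7.33 and 7.86 RPKM in untreated libraries, 3.69, 4.97 and 4.68 with OHT, 5.90, 6.49 and 5.76 with IACS, and 4.02, 3.5 and 4.02 with both. Every library with OHT lay below every library without it (OHT against untreated −0.74, SE 0.10, adjusted p 8.27e-05). Ndrg1, a stress-response gene, was lower with both compounds than with IACS-010759 alone (−0.73, SE 0.23, adjusted p 0.0319) or in untreated cells (−1.0, SE 0.23, adjusted p 0.00386), at only 27 to 98 reads per library. The former call was lost without any of 5 single libraries (IACS 1, 2 or 3, or OHT_IACS 1 or 2, −0.75 to −0.57, adjusted p 0.0689 to 0.12), without the filter (adjusted p 0.0533) and with the library total in the fit (−0.63, adjusted p 0.054), and the latter with the library total in the fit (−0.73, adjusted p 0.0565).

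Of the 4 p53 targets of the BCL2 family, Bax, a pore-forming effector of apoptosis, rose with OHT (28.5 ± 1.15 to 35.9 ± 3.40 RPKM, 0.33, SE 0.07, adjusted p 0.00239). Bid, a BH3-only activator, fell (27.9 ± 0.748 to 22.3 ± 0.980 RPKM, −0.32, SE 0.05, adjusted p 0.000396). Bbc3, which encodes Puma, rose when IACS-010759 was added to primed cells (5.42 ± 0.905 to 7.26 ± 0.743 RPKM, 0.42, SE 0.10, adjusted p 0.0116), a call that was lost without OHT_IACS library 2 (0.34, adjusted p 0.0515). In nonprimed cells 0 of the 3 tested targets of this family were called with IACS-010759 (Bbc3 5.72 ± 0.189 to 6.63 ± 0.304 RPKM). The study, which tested counts with DESeq2, reported for cells with and without OHT that IACS-010759 did not significantly raise Puma mRNA. The call in primed cells given here differs from that report. On immunoblots the study found more Puma protein after IACS-010759. Pmaip1, which encodes Noxa, was at 0 in every library. The BCL2-family targets hence differed in direction with OHT, and the plot of other targets and regulators by library shows the separation of their groups.

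**Figure D3:**
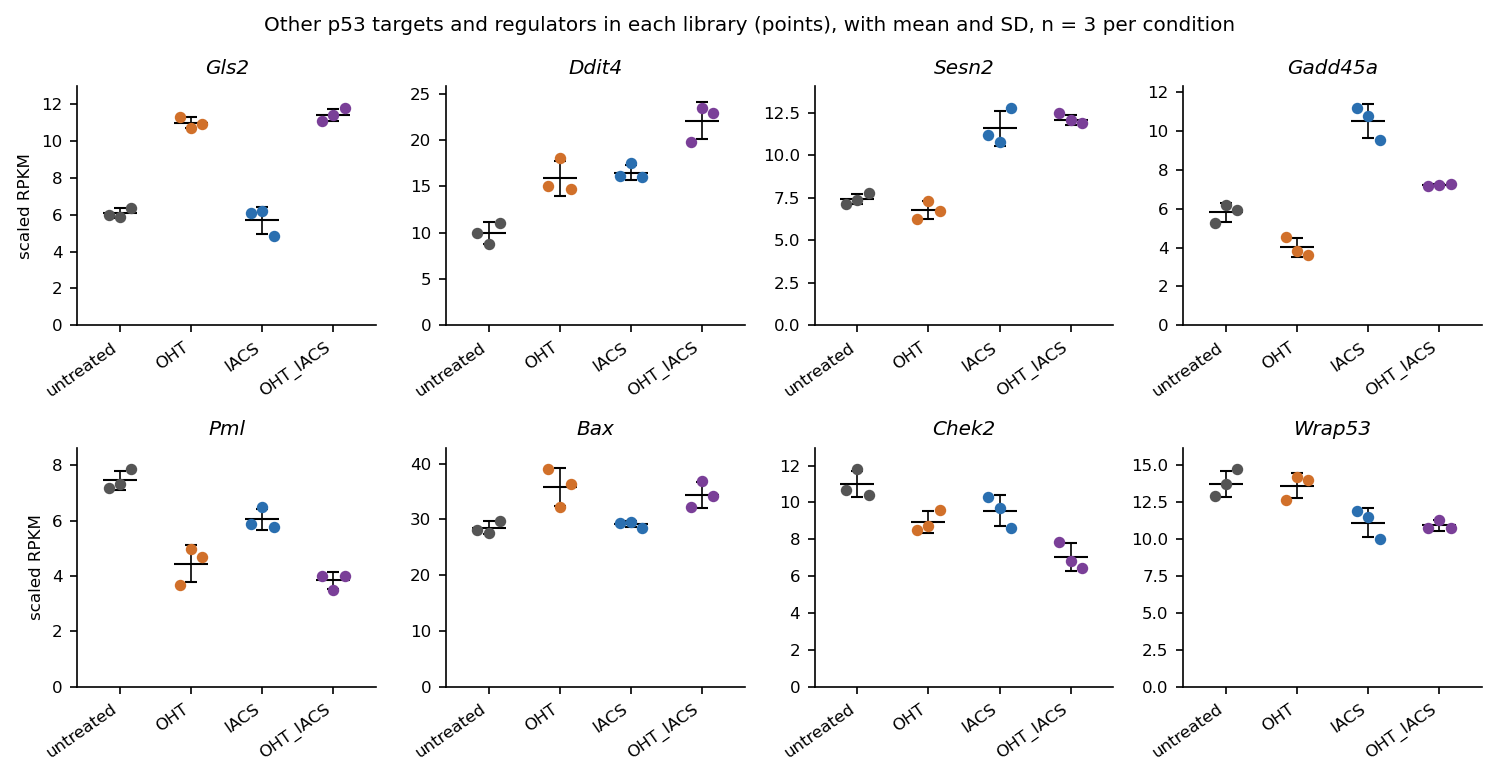
Scaled RPKM (vertical axes from 0) of 6 further p53 targets and 2 regulators in the 12 libraries; points are libraries, lines are means and error bars SD over 3 libraries. Gls2 and Bax are higher and Pml lower with OHT, Sesn2 and Gadd45a are higher with IACS-010759, Ddit4 is highest with both, Chek2 is lowest with both, and Wrap53 is lower in both conditions with IACS-010759.

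Of 25 upstream regulators of p53, 24 were tested, and Cdkn2a, the locus of the Mdm2 inhibitor Arf, had 1 to 3 reads per library and was left out. With OHT 5 rose and 2 fell (29.2% called, beside 36.4% of all genes), with IACS-010759 in nonprimed cells 2 rose and 1 fell (12.5%, beside 15.9%), and in primed cells 0 rose and 3 fell (12.5%, beside 23.7%). In none of these 3 comparisons was the share called above that of all genes. With both compounds against neither 6 rose and 5 fell (45.8%, beside 39.4%), and for OHT under IACS-010759 1 rose and 2 fell (12.5%, beside 26.5%). Hipk2, a kinase that phosphorylates p53, measured 3.92, 4.54 and 4.50 RPKM in untreated libraries and 5.26, 6.74 and 6.0 with OHT, without overlap (0.46, SE 0.10, adjusted p 0.00384). Atr, a kinase of the replication stress checkpoint, measured 6.51, 6.98 and 6.62 in untreated libraries, 8.30, 8.54 and 8.46 with OHT, and 7.96, 8.20 and 7.65 with IACS. It rose in both (0.33, SE 0.05, adjusted p 0.00043, and 0.24, SE 0.05, adjusted p 0.00937).

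Mdm4, the partner of Mdm2 that masks the activation domain of p53, rose with IACS-010759 in nonprimed cells (10.2 ± 0.122 to 11.8 ± 0.315 RPKM, 0.21, SE 0.05, adjusted p 0.0187). This was not called without untreated library 1 or 3 or IACS library 1 or 2 (0.19 to 0.21, adjusted p 0.0536 to 0.0646). Chek2, a DNA damage checkpoint kinase, fell with OHT (−0.29, SE 0.08, adjusted p 0.0164) and further when IACS-010759 was added (−0.34, SE 0.08, adjusted p 0.0108), from 11 ± 0.719 RPKM in untreated cells to 7.04 ± 0.743 with both. The fall with OHT was lost without untreated library 2 (−0.24, adjusted p 0.0741) or OHT library 1 (−0.25, adjusted p 0.0575) and with the library total in the fit (−0.23, adjusted p 0.16), and the fall in primed cells without OHT_IACS library 3 (−0.28, adjusted p 0.051). Daxx, an Mdm2-binding chaperone, was lower with OHT (−0.20, SE 0.06, adjusted p 0.0171), a call lost without untreated library 3 or OHT library 1 or 3 (−0.20 to −0.16, adjusted p 0.0508 to 0.0734), with RPKM as deposited (−0.18, adjusted p 0.0686) or with the library total in the fit (−0.09, adjusted p 0.318). Trp53rk, a kinase that phosphorylates p53, was lower with both compounds than with neither (−0.41, adjusted p 0.0322), a call that held under 13 of 21 alternatives. The p53 family members Trp63 and Trp73 had at most 1 read in any library.

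**Figure D4:**
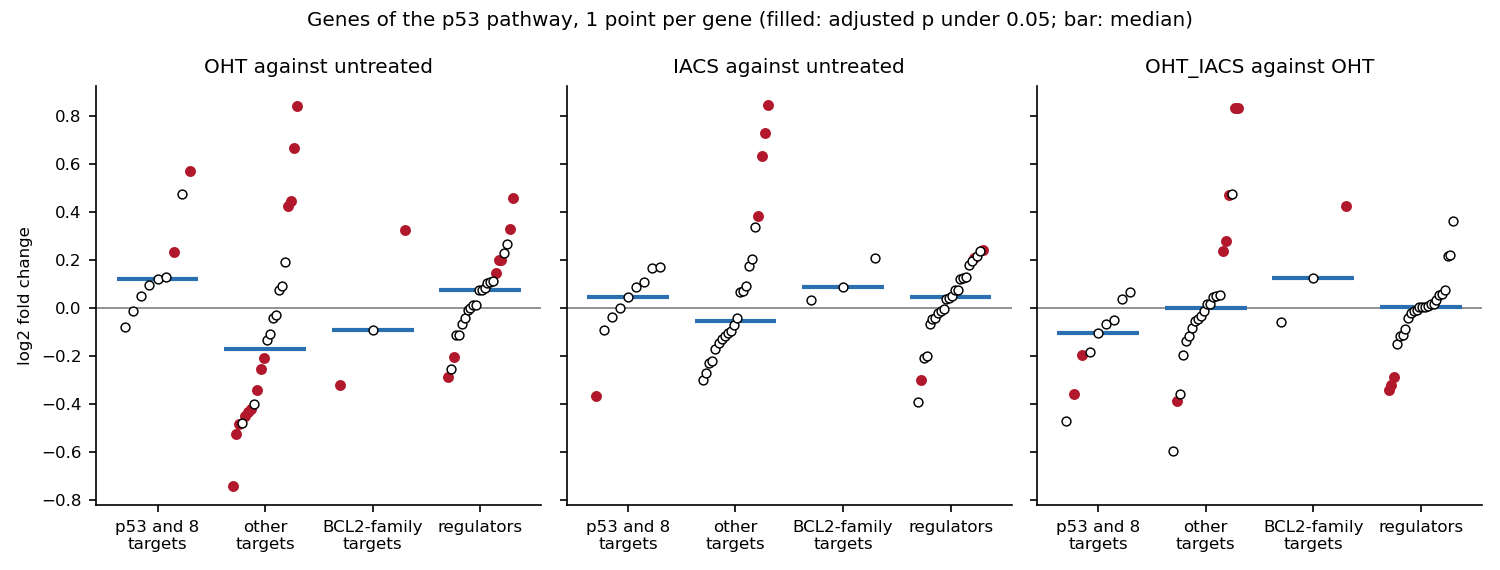
Log2 fold changes (vertical axis) of the tested genes of 4 groups, Trp53 with 8 targets, 22 other targets, 3 BCL2-family targets and 24 regulators, in 3 comparisons; each point is a gene, filled points passed an adjusted p of 0.05 and bars are medians. Other targets spread from −0.74 to 0.84 with OHT, and the 9 members from −0.08 to 0.57.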

How the data were processed

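RNA-seq data of 12 libraries of FL5.12 MycER cells, 3 for each of 4 conditions given by the sample labels, were used. Per the submitters' processing notes the authors used TopHat2 2.0.8, SAMtools, featureCounts 1.4.5-p1 and DESeq2 on mouse build mm9. Per the study's methods the authors used DESeq2 to find differentially expressed genes; the roles of the other tools, the annotation and the strand setting of counting are not given in the sources used here. The authors deposited the RPKM of each gene in each library, together with 6 columns of fold changes and adjusted p-values of their own comparisons, which were not used. Since deposited values were RPKM, limma 3.58.1 (R 4.3.3) was used in place of a count test.

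Each library was divided by a median-ratio scale factor. The 9745 genes that reached an RPKM of 1 in 3 or more libraries were kept, and log2(RPKM + 0.1) was fitted in a single model of the 4 conditions (eBayes with trend, two-sided, Benjamini-Hochberg within a comparison). The pseudocount understates changes of low genes. Whole reads were worked out from the RPKM steps for 15449 of 15451 genes above 0 within a tolerance of 1e-06. Per the study's methods the 3 libraries of a condition were biological replicates, and how their cultures were separated is not given. Intervals and the floor of 3 reads cover only counting error or the spread between libraries, part of which may be technical. Alternatives were pseudocounts of 0.01 and 1, no filter, RPKM of at least 5, RPKM as deposited, quantile normalization, the compared groups alone, the replicate number as a block, the log2 library total as covariate, voom on reads, and each library left out. The procedure was tested on simulated data.

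Members and lists were chosen with earlier results of these data known. Besides the members, genes were named from up to 2 called genes per direction, list and comparison, those with the greatest absolute change whose groups did not overlap; Ddit3 and Wrap53 were named as comparators, and cell type markers are given as sums, with a few of them named. Positions came from GENCODE vM21 (GRCm38) and promoter windows from RefSeq (GRCm38.p6), not from the build of the files. Figures were drawn with matplotlib 3.10.9 (python 3.11.15, numpy 2.4.6, pandas 2.3.3).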

Additional observations from a re-analysis of the deposited data

How the results depend on the processing

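Of the 54 values for members, 10 were called, and 2 of these (Zmat3 with OHT, and Trp53 for OHT under IACS-010759) were called under all alternatives that could be run for them; none of the 10 changed direction, while 16 uncalled values did so at least once. The replicate numbers did not pair the libraries: correlations of deviations between libraries of the same number ran from −0.172 to 0.104 over 18 pairs, and from −0.182 to 0.168 over 36 pairs of different number. With the replicate block 7 genes passed in the interaction against 14 without it, and it changed no call of a named gene. Depth limits Eda2r and Cdkn2a, at 3 reads or fewer.

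Members called with OHT numbered 1 without the filter, 1 at RPKM of at least 5 and 4 after quantile normalization, against 2. With IACS-010759 in nonprimed cells there were 2 with RPKM as deposited against 1, in primed cells 1 with only the compared groups against 2, and for OHT under IACS-010759 2 without the filter against 1. Over the fits that left out a library each, members called ranged from 1 to 3, 0 to 2, 1 to 3 and, for both compounds against neither, 1 to 4. Of all genes, 2351 passed with OHT with the library total as covariate against 3546. The interaction gave 7 without the filter, 5 with RPKM as deposited, 34 after quantile normalization, 5 with the library total and 36 with voom. Leaving out a library each gave 949 to 1805 genes for IACS against untreated, 1521 to 2995 for OHT_IACS against OHT and 3 to 149 for the interaction, the highest without OHT library 2.

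Log2 values of uncalled members crossed 0 as follows, and the cause was not tested. With the library total as covariate Ccng1 was at −0.0209 with OHT, −0.0345 with IACS and −0.112 with both, the last also at −0.0545 after quantile normalization. Phlda3 with OHT was at 0.00861 with RPKM as deposited, 0.036 after quantile normalization and 0.112 with the library total. For OHT under IACS-010759 it was at 0.0175 after quantile normalization and 0.0346 with the library total. Its interaction was −0.0206 with RPKM as deposited, −0.0185 after quantile normalization, −0.0771 with the library total and −0.00234 with voom. Tnfrsf10b with IACS was at 0.00525 with the library total. Trp53inp1 with pseudocount 0.01 was at −0.000503 with IACS, −0.000527 for OHT under IACS-010759 and −0.00103 with both, the second also at −0.00555 with RPKM as deposited and −0.00507 with voom.

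Leaving out a library each, the ranges that crossed 0 were −0.0126 to 0.123 for Cdkn1a in OHT_IACS against OHT, −0.0429 to 0.0106 for the Mdm2 interaction, and −0.0199 to 0.0611 for Ccng1 with both. For Trp53inp1 they were −0.104 to 0.0807 with IACS, −0.158 to 0.104 for OHT under IACS-010759 and −0.158 to 0.0889 with both. For Phlda3 they were −0.0917 to 0.0769 with OHT, −0.0575 to 0.0446 for OHT under IACS-010759 and −0.0827 to 0.0859 in the interaction, and for Aen −0.0365 to 0.0246 for OHT under IACS-010759. For Tnfrsf10b they were −0.0835 to 0.0469 with IACS, −0.153 to 0.00887 in OHT_IACS against OHT, −0.00673 to 0.109 with both and −0.114 to 0.0482 in the interaction.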

Other observations

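Of 12 cell cycle genes that p21 is known to lower through the DREAM repressor complex, all tested, 4 rose and 1 fell with OHT (41.7% called, beside 36.4% of all genes). With IACS-010759 0 rose and 1 fell in nonprimed cells (8.33%, beside 15.9%), and 0 rose and 3 fell in primed cells (25%, beside 23.7%). The fitted log2 fold change was above 0 for 8 of the 12 with OHT, for 0 with IACS-010759 in nonprimed cells (highest −0.00487) and for 1 in primed cells, with medians of 0.11, −0.06 and −0.12, beside 0.0127, 0.00384 and −0.0137 for all genes tested. No test was made of the group. Cdc25c, a phosphatase that starts mitosis, measured 11.5, 10.9 and 11.4 RPKM in untreated libraries, 8.60, 9.04 and 8.31 with OHT, 9.92, 8.84 and 7.92 with IACS, and 6.98, 7.59 and 7.34 with both. It fell with OHT (−0.38, SE 0.07, adjusted p 0.00115, limma with Benjamini-Hochberg adjustment) and with IACS-010759 in nonprimed cells (−0.34, SE 0.07, adjusted p 0.00594). Aurka, a mitotic kinase, rose with OHT (0.18, adjusted p 0.0174) under 17 of 22 alternatives and fell when IACS-010759 was added (−0.24, adjusted p 0.00582). The rise of Cdk1 with OHT (0.18, adjusted p 0.0473) held under 8 of 22. With the log2 library total in the fit neither rise was called (Aurka 0.09, adjusted p 0.167, and Cdk1 0.02, adjusted p 0.817). OHT library 2, with the highest total of its group, was the lowest OHT library for both (35.1 and 22.3 RPKM). The part of library depth in the counts above 0 was not tested. Plk1 rose with OHT under IACS-010759 (0.22, adjusted p 0.00319), and Ccnb2 was lower with both compounds than with neither (−0.20, adjusted p 0.0065).

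Of 6 genes of the integrated stress response, kept as comparators, 5 were tested. With OHT 3 rose and 1 fell (80.0% called, beside 36.4% of all genes), and with IACS-010759 4 rose in nonprimed cells and 4 in primed cells (80.0% each, beside 15.9% and 23.7%). Trib3, a pseudokinase, rose from 5.80 ± 0.435 to 22.8 ± 1.31 RPKM in nonprimed cells, and Atf5, a mitochondrial stress factor, from 3.20 ± 0.328 to 11 ± 0.768. With OHT Trib3 rose to 9.43 ± 1.90 RPKM (0.68, SE 0.10, adjusted p 0.000243) and Asns, the asparagine synthetase, from 44.9 ± 0.281 to 56.6 ± 6.05 RPKM (0.33, SE 0.07, adjusted p 0.00322). Both were called under all 22 alternatives, but the size of the Asns rise ran from 0.165 to 0.35 over those that kept all libraries. Asns measured 61.2, 49.8 and 58.9 RPKM in the OHT libraries, lowest in OHT library 2, which had the highest total of its group. Atf5 fell with OHT (−0.41, SE 0.13, adjusted p 0.0288), with overlapping libraries; it was outside the rule for named genes and was chosen after its values were seen. The call was lost under 7 of 22 alternatives, among them without untreated library 2 (−0.33, adjusted p 0.114), without OHT library 1 (−0.25, adjusted p 0.118) or 3 (−0.40, adjusted p 0.0685), and with the library total in the fit (−0.12, adjusted p 0.518).

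The genes outside all lists whose scaled log2 levels were most like those of Trp53 over the 12 libraries were AI506816 (Pearson r 0.971), Dapp1 (0.943) and Scp2 (0.941). For Cdkn1a they were Inpp5a (0.88), Ube2h (0.873) and Rbm44 (0.867), and for Mdm2 Dnajb9 (0.877), Prdm15 (0.87) and Map3k5 (0.862). These were picked as the highest of all tested genes, the libraries share conditions, and no test was made.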
